A study of Mus musculus with 6 samples.

Results

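Expression of the genes that encode the pre-mRNA cleavage and polyadenylation machinery and the Integrator complex was followed in mouse embryonic stem cells (ESCs) with and without Hnrnpf knockout. The members were 33 listed gene symbols: 19 subunits and partners of the cleavage-polyadenylation machinery and 14 numbered Integrator subunits. All 33 were found among the 25170 symbols of the table, and all 33 averaged 1 FPKM or more (fragments per kilobase of transcript, scaled to library size), as did 11785 genes in all. RNA-seq was done on 6 libraries of E14, an established mouse ESC line grown in serum. The 4 groups were Hnrnpf KO cells with leukemia inhibitory factor (LIF, the cytokine that sustains self-renewal; libraries 1 and 2), WT E14 cells with LIF (1 library), Hnrnpf KO cells 4 days after LIF removal (libraries 1 and 2), and WT E14 cells 4 days after LIF removal (1 library). The labels do not say how the gene was disrupted or whether the knockout libraries came from separate clones or cultures. They use the same numbers, 1 and 2, in both media, but do not say that a number marks 1 clone. The p-values therefore reflect only library-to-library variation, which could be technical. The genotype fit over both media counts the 4 knockout libraries as independent, which would not hold if a number marks 1 clone.

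The 3′ end of most mRNAs is made by cutting the transcript downstream of an AAUAAA signal and adding a poly(A) tail. CPSF reads the signal and makes the cut, CstF binds GU-rich RNA downstream of it, CFIm binds UGUA upstream of it, and CFIIm links the reaction to RNA polymerase II. Integrator is a separate complex with a related endonuclease, which forms the 3′ ends of small nuclear RNAs and ends transcription early at many protein-coding genes together with the phosphatase PP2A. Hnrnpf encodes an RNA-binding protein of G-rich sequences; hnRNP H and F proteins are known to influence splicing and the use of some polyadenylation sites.

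Members are themselves made as polyadenylated mRNAs, and the signal that CPSF reads can be shown at their own ends. The last 30 bases of 5 annotated transcripts (GENCODE M21, GRCm38, the same assembly as mm10) follow, 5′ to 3′ on the transcript strand and written as DNA, with AATAAA in capitals. They come from the CstF subunit that was higher in knockout cells, from the CFIIm kinase, from the CFIm subunit and from both complexes' nuclease modules.
Cstf3, chr2:104665400-104665429, plus strand: aaaggAATAAAaggacctcaaaaacatgcc
Clp1, chr2:84722104-84722133, minus strand: taagtatacAATAAAtttaaccttttcttc
Nudt21, chr8:94015496-94015525, minus strand: gttatttcAATAAAaatatttaaaactgaa
Cpsf2, chr12:102006395-102006424, plus strand: tatttcgctAATAAATAAAagatgctgagc
Ints11, chr4:155889074-155889103, plus strand: gcacAATAAAtgttgtacaatctccacttc
In the Cpsf2 end, overlapping copies of AATAAA run together. AATAAA lay in the last 50 bases of the annotated transcript of 21 of the 33 members (63.6%), against 58.7% of 21809 protein-coding genes. TGTA, the DNA form of the CFIm motif, lay in the last 100 bases of 14 members (42.4%), against 50.2% of all. Only the transcript strand was searched, and a missing match says only that these letters are not in the annotated window.

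The labels were checked first on the targeted gene and on ESC markers. Hnrnpf stood at 98.7 and 37.1 FPKM in the knockout libraries 1 and 2 with LIF, against 342 FPKM in WT cells with LIF, and at 95.2 and 27.8 FPKM in the knockout libraries after LIF removal, against 335 FPKM in WT cells after LIF removal. Transcript thus remained in each knockout library, between 8.28% and 28.9% of the WT level in the same medium. With LIF and after LIF removal it was at 28.9% and 28.4% in the libraries numbered 1. In those numbered 2 it was at 10.8% and 8.28%. All 10 ESC markers listed were at 1 FPKM or more in every library, and their summed level was 3072 to 4165 FPKM after LIF removal, against 6762 to 9604 with LIF. The 7 fibroblast (feeder) markers summed to 7.08 to 9.67 FPKM in knockout libraries, against 4.11 to 6.35 in WT libraries, with Lum at or below 0.1 FPKM everywhere. The relative depth of the libraries, read from the steps of the lowest values, ranged from 0.844 to 1.08 of that of WT with LIF; the number of reads behind a value is unknown.

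Levels spanned an 18.9-fold range and were mostly well above the middle of the transcriptome. The median member stood at 30.2 FPKM over the 6 libraries, against 12.9 FPKM for all tested genes, and 31 of 33 members had a mean of at least 10 FPKM. The highest were the products that make and bind the tail: Pabpn1, the nuclear poly(A)-binding protein, at 105 FPKM and Papola, the canonical poly(A) polymerase, at 104 FPKM, a gap smaller than their spread over libraries. In the CPSF core, levels ran from 25.9 FPKM for Fip1l1, which binds U-rich RNA and the polymerase, to 58.2 FPKM for Sympk, the scaffold symplekin. CFIm was uneven, with Nudt21, its UGUA-binding small subunit, at 9.41 FPKM and Cpsf6, a large subunit, at 48.8 FPKM. CstF ran from 19.6 FPKM for Cstf2t, an intronless relative of Cstf2, to 60.6 FPKM for Cstf1. In CFIIm with its partner Rbbp6, the polymerase-binding Pcf11 was lowest at 12.4 FPKM and the RNA kinase Clp1 highest at 39.0 FPKM. In Integrator, Ints6 of the phosphatase module was lowest at 5.57 FPKM and Ints11, the endonuclease, highest at 45.0 FPKM.

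The levels varied little between libraries. The highest library was less than 1.5 times the lowest for 27 of 33 members, which was so for 41.9% of the 6728 tested genes that averaged 10 FPKM or more. The 6 others were Ints2 (2.43-fold), Nudt21 (2.28-fold), Ints10 (1.86-fold), Pabpn1 (1.58-fold), Ints14 and Cstf3 (each 1.51-fold). The summed level of all members was 1170 and 1148 FPKM in knockout libraries with LIF, against 1187 FPKM in WT cells with LIF, and 1158 and 1123 FPKM in knockout libraries after LIF removal, against 1195 FPKM in WT cells after LIF removal. These are bulk samples, in which fewer cells of a type and less RNA per cell cannot be told apart.

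**Figure D1:**
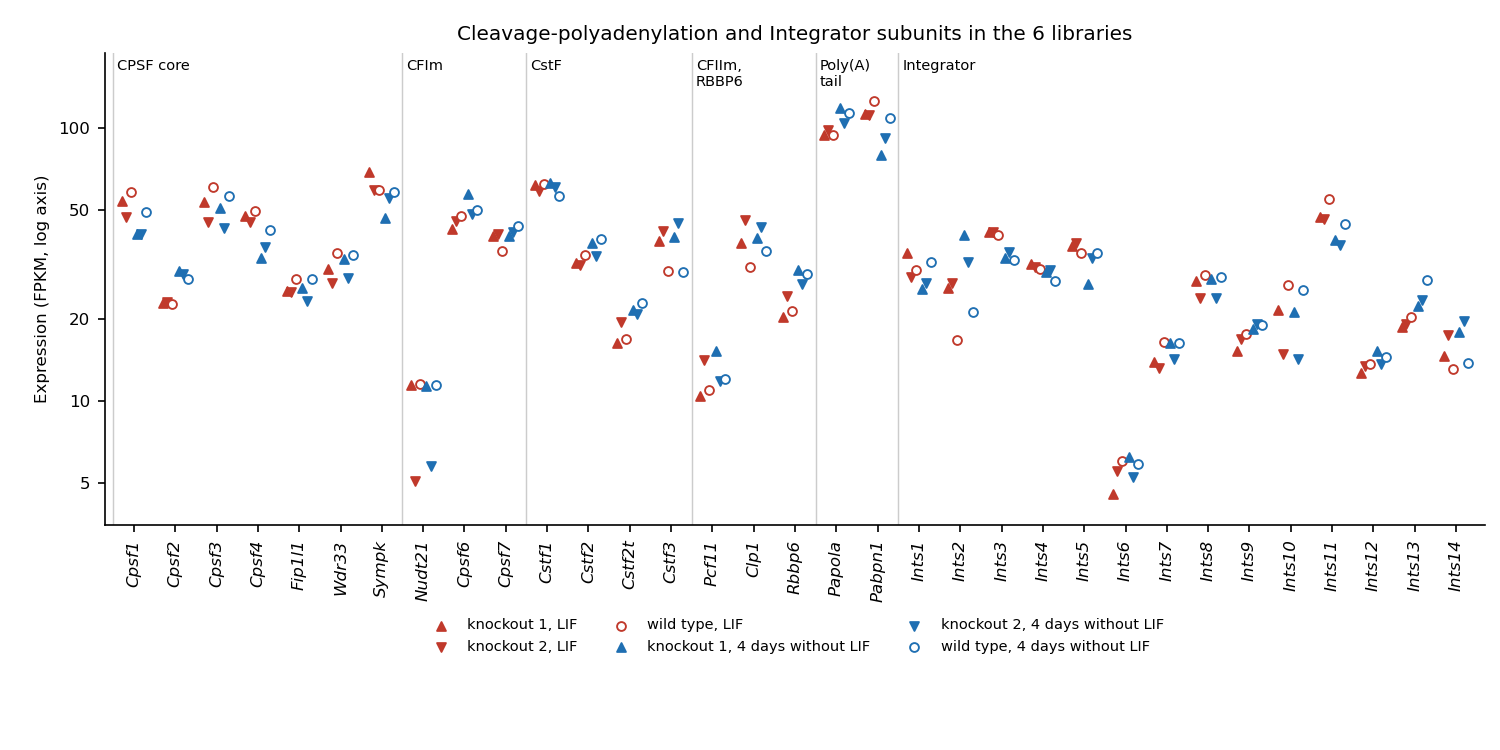
FPKM (vertical log axis) of the 33 subunits in each of the 6 libraries, grouped by complex; filled triangles are knockout libraries 1 (up) and 2 (down), open circles are wild type, red is with LIF and blue is 4 days without it. Most subunits lie within a narrow band, while Ints2 and Cstf3 are higher in all knockout libraries and Nudt21 and Ints10 are lowest in both knockout libraries numbered 2.

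The knockout effect over both media was the widest comparison of genotype, with 4 knockout and 2 WT libraries. Ints2 of Integrator and Cstf3 of CstF were higher in knockout cells and no member was lower, while the other 31 did not pass (limma, adjusted p under 0.05). Of all tested genes, 10.5% passed, 5.79% higher and 4.67% lower, so 2 of 33 is a share close to the background. The median difference of the members was -0.06 on the log2(FPKM + 1) scale, against -0.03 for all tested genes. The 95% interval lay within 0.6 of 0 for 27 members and within 1 for 32, the exception being Nudt21 (-1.22 to 0.24). Beside this comparison, the summed fibroblast markers were higher in knockout than in WT libraries, as given above, and so were the 4 endoderm markers (2.00 to 3.24 FPKM in knockout libraries, against 1.21 to 1.68 in WT libraries). In each of these lists only 1 marker, Thy1 or Gata4, was at 1 FPKM or more in every library, and it was the largest part of the sum. Thy1 was at 7.01 FPKM in both knockout libraries with LIF, against 3.16 in WT cells. After LIF removal Thy1 was at 4.05 and 5.16 FPKM in knockout cells, on both sides of 4.76 in WT cells. Pdgfrb was at 1.44 and 1.30 FPKM in knockout cells with LIF, against 0.786 in WT cells, and at 1.47 and 1.38 after LIF removal, against 0.417. Col1a1 and Col1a2 were also above WT of the same medium in each knockout library. Col3a1 with LIF and Dcn after LIF removal lay on both sides of WT. The ESC markers summed to 6762 and 6782 FPKM in knockout cells with LIF, against 9604 in WT cells with LIF, and to 3763 and 3072 FPKM in knockout cells after LIF removal, against 4165 in WT cells after LIF removal. Dppa5a was the largest part of these sums (4062 and 4115 FPKM with LIF, against 6460 in WT), and not every marker followed them. After LIF removal Nanog was at 185 and 146 FPKM in knockout cells, against 126 in WT cells. Klf4 was then at 6.21 and 10.5 FPKM, against 2.65 in WT cells. The 3 mesoderm markers summed to 1.86 and 1.57 FPKM in knockout cells with LIF, against 0.699 in WT cells with LIF, and to 5.19 and 15.0 FPKM in knockout cells after LIF removal, against 3.03 in WT cells after LIF removal. After LIF removal most of this sum was T (4.45 and 13.3 FPKM in knockout cells, against 1.81 in WT cells). Mesp1 was then at 0 in both knockout libraries, against 0.189 FPKM in WT cells. The 4 neural markers lay on both sides of WT with LIF and summed to 51.3 and 50.4 FPKM in knockout cells after LIF removal, against 82.3 in WT cells after LIF removal. Most of that sum was Tubb3 (48.4 and 47.5 FPKM in knockout cells, against 77.1 in WT cells after LIF removal). For these lists their part in these differences was not tested.

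Cstf3 encodes the CstF subunit that bridges the others of the complex (chromosome 2, 104590484 to 104665425). It was at 38.6 and 42.1 FPKM in knockout cells with LIF, against 30 in WT cells with LIF, and at 39.8 and 44.8 FPKM in knockout cells after LIF removal, against 29.8 in WT cells after LIF removal. All 4 knockout libraries lay above both WT libraries, at 129% to 151% of the WT value. The difference was 0.45 (SE 0.11, limma adjusted p = 0.0409). The 31 tested genes within 5 Mb had a median of -0.12 and -0.07 in the knockout libraries with LIF and 0.01 and 0.01 after LIF removal, and none of them passed. Leaving out knockout library 1 with LIF, 2 with LIF or 2 after LIF removal gave adjusted p = 0.0563, 0.103 and 0.0941, and leaving out the WT library with LIF or the one after LIF removal gave 0.248 and 0.292. Testing all genes unfiltered gave 0.0700, and a fit with no intensity trend 0.0714. The other CstF subunits did not pass, with differences of 0.04 for Cstf1, -0.12 for Cstf2 and -0.01 for Cstf2t. Vertebrate Cstf3 is known to give a short transcript from a polyadenylation site in an intron, and 1 value per gene does not separate it from the full-length mRNA.

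Ints2 encodes a core Integrator subunit (chromosome 11, 86210681 to 86257609). It was at 26.0 and 27 FPKM in knockout cells with LIF, against 16.7 in WT cells with LIF, and at 40.5 and 32.3 FPKM in knockout cells after LIF removal, against 21.1 in WT cells after LIF removal. The groups did not overlap, and knockout libraries stood at 153% to 192% of WT. The difference was 0.69 (SE 0.13, limma adjusted p = 0.0186). Leaving out the WT library with LIF or the one after LIF removal gave adjusted p = 0.160 and 0.184, and testing all genes unfiltered gave 0.0519. Ints2 lies in a shifted region: the 76 tested genes within 5 Mb were higher by a median of 0.45 and 0.49 in knockout libraries with LIF and of 0.55 and 0.54 after LIF removal, with 31 called higher and none lower. The shift was not confined to this window: all 1007 tested genes of chromosome 11 had a median of 0.45 and 0.46 in knockout libraries with LIF. After LIF removal it was 0.42 and 0.48. On the whole of chromosome 11, 366 of these genes (36.3%) were called higher and 4 lower. How much of the Ints2 difference this shift accounts for was not tested. Of the 29 members on chromosomes other than 6, 8 and 11, 1 passed, Cstf3, beside 7.18% of the 9530 tested genes placed there (2.12% higher and 5.06% lower).

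The 250 bases upstream of a listed start of both genes in a RefSeq table (GRCm38.p6) are shown because these are the members that passed in this comparison. The Ints2 window reaches down to 86257595, which is inside the gene bounds given above (to 86257609). Capitals mark GGGCGG (SP/KLF box), CCGGAA (ETS core) and CCAAT (NF-Y box) on either strand.
Cstf3, chr2:104590234-104590483, plus strand: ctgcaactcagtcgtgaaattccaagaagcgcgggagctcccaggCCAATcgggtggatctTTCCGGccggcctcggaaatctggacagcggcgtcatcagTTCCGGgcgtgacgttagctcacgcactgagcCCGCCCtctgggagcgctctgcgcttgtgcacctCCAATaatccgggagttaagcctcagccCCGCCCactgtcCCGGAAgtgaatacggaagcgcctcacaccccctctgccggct
Ints2, chr11:86257595-86257844, minus strand: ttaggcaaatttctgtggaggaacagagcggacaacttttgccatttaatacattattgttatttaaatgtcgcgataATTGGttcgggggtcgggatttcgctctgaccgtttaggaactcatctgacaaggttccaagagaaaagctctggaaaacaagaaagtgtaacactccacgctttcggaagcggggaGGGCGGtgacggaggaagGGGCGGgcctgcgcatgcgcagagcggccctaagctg
The Cstf3 window held 2 GC boxes, 3 ETS cores and 2 CCAAT boxes, and the Ints2 window 2 GC boxes and 1 CCAAT box, with no match overlapping another. Of 27025 promoters of that length, 32.9% held GGGCGG, 12.2% CCGGAA, 34.5% CCAAT and 13.0% TATAAA, searched on both strands. Of the 27 members matched in the table, 16 held GGGCGG, 9 CCGGAA, 14 CCAAT and none TATAAA, with a median GC content of 62.0%, against 52.0% for all promoters. These matches describe letters and are not binding sites.

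Among members that did not pass, the lowest p-values belonged to Ints10, Ints14 and Clp1. Ints14, of Integrator's auxiliary module with Ints10 and Ints13, was at 14.6 and 17.5 FPKM in knockout cells with LIF, against 13.1 in WT cells with LIF, and at 17.9 and 19.7 FPKM in knockout cells after LIF removal, against 13.8 in WT cells after LIF removal (0.35, SE 0.13, limma adjusted p = 0.135). Clp1 was at 38.1 and 46.3 FPKM in knockout cells with LIF, against 30.9 in WT cells with LIF, and at 39.7 and 43.3 FPKM in knockout cells after LIF removal, against 35.6 in WT cells after LIF removal (0.32, SE 0.13, limma adjusted p = 0.145). For both genes all knockout libraries lay above both WT libraries. In all, 4 members lay wholly above WT (Cstf3, Clp1, Ints2 and Ints14), as did 11.9% of tested genes, and 5 lay wholly below (Cpsf3, Fip1l1, Wdr33, Ints8 and Ints10), as did 13.0%. In the CPSF core, 6 of 7 subunits had a negative difference, as had 21 of all 33 members and 6410 of the 11785 tested genes. The CPSF core median was -0.18, and its furthest value was -0.28 for Cpsf3, the endonuclease (95% interval -0.56 to 0.00, limma adjusted p = 0.182). None of these 7 passed.

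Both members on chromosome 8, Nudt21 and Ints10, differed between the knockout libraries by number. Nudt21 (94019403 to 94037039) was at 11.4 FPKM in knockout library 1 and 5.08 in knockout library 2 with LIF, against 11.5 in WT cells with LIF, and at 11.3 in library 1 and 5.75 in library 2 after LIF removal, against 11.4 in WT cells after LIF removal. Library 1 thus stood at 99% of WT in both media, and library 2 at 44.0% with LIF and 50.5% after LIF removal. Over both media the knockout difference was -0.49 (SE 0.32, limma adjusted p = 0.363), and -0.26 or -0.31 without library 2 with LIF or after LIF removal. The 44 tested genes within 5 Mb of Nudt21 had a median of 0.17 in library 1 and -0.33 in library 2 with LIF, and of 0.02 and -0.39 after LIF removal. All 658 tested genes of chromosome 8 had a median of 0.08 in library 1 and -0.34 in library 2 with LIF. After LIF removal these medians were -0.05 and -0.39. For the knockout effect over both media, 46 of these genes were called lower and 6 higher.

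Ints10 (68793929 to 68829410) was at 21.5 FPKM in knockout library 1 and 14.9 in knockout library 2 with LIF, against 26.6 in WT cells with LIF, and at 21.2 in library 1 and 14.3 in library 2 after LIF removal, against 25.6 in WT cells after LIF removal. All 4 knockout libraries lay below both WT libraries, at 80.8% and 82.8% of WT in those numbered 1 and at 55.9% and 55.8% in those numbered 2 (difference -0.54, SE 0.19, limma adjusted p = 0.118). Its 115 tested neighbours had medians of 0.07 and -0.39 with LIF and of -0.06 and -0.41 after LIF removal in libraries 1 and 2. Nudt21 and Ints10 were the 2 members at least 0.5 (log2) lower in number 2 than in number 1 in both media, as were 1.85% of tested genes; no member was that much higher, as were 2.23%. Averaged over media, number 2 minus number 1 was -0.95 for Nudt21, -0.52 for Ints10 and -0.23 for Cpsf3, the widest among the members. Ints13, the member on chromosome 6 (146549632 to 146577835), gave -0.18 for the knockout effect (SE 0.11, limma adjusted p = 0.344). It gave -0.27 or -0.10 when the WT library with LIF or the one after LIF removal was left out. Its neighbour medians lay between -0.08 and 0.07. On the whole of chromosome 6, 106 of 538 tested genes (19.7%) were called higher and 14 lower.

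**Figure D2:**
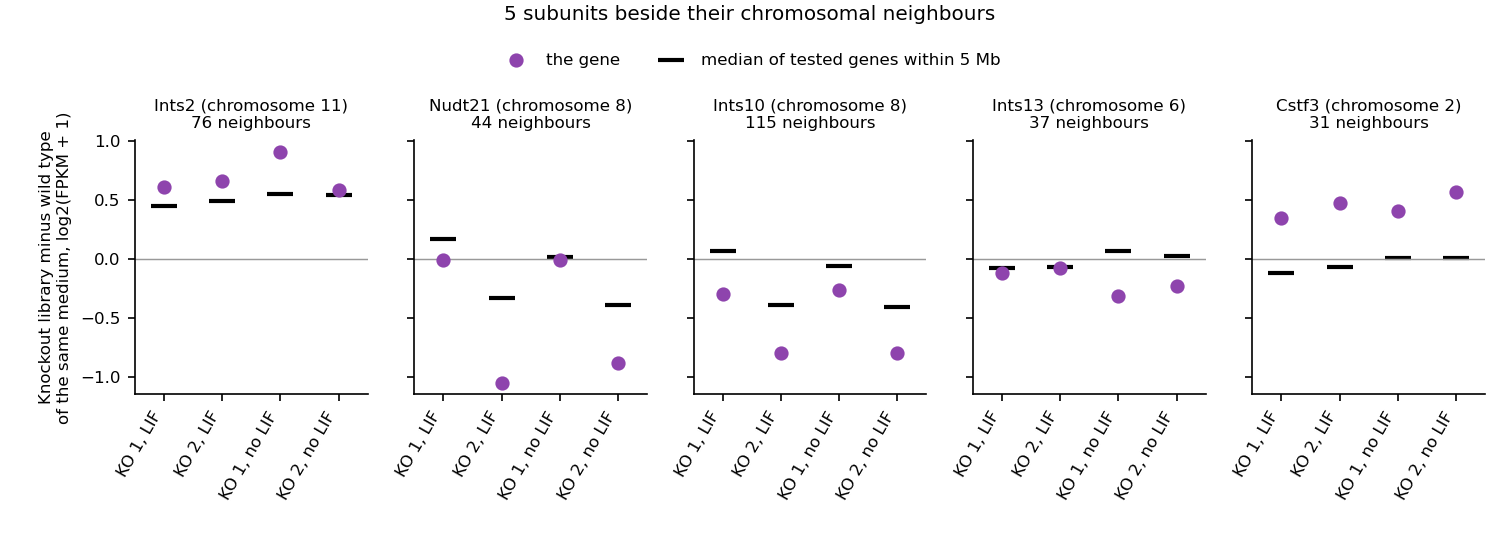
Difference from wild type of the same medium, on the log2(FPKM + 1) scale (vertical axis), in each of the 4 knockout libraries (KO; horizontal axis), for 5 subunits (dots), with the median of the tested genes within 5 Mb (bars). Ints2 and its neighbours are higher in all 4 libraries, Nudt21 and Ints10 are lowest in both libraries numbered 2, as are their neighbours' medians, and Cstf3 is higher beside neighbours with medians near 0.

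Within a single medium no member passed. With LIF, limma called 0 of 33 (0.0424% of all tested genes passed). At an unadjusted p under 0.05 there were 2 members, both higher, against 16.7% of all tested genes in either direction. After LIF removal limma called 0 of 33 (0.0594% of all). Again 2 members, both higher, had an unadjusted p under 0.05, against 15.5% of all tested genes in either direction. Ints2 gave 0.64 with LIF (95% interval 0.17 to 1.11, limma adjusted p = 0.185) and 0.75 after LIF removal (0.28 to 1.22, limma adjusted p = 0.162). Cstf3 gave 0.42 with LIF (0.01 to 0.83, limma adjusted p = 0.294) and 0.49 after LIF removal (0.08 to 0.90, limma adjusted p = 0.250). The remaining members with the lowest p were Clp1 (0.43) and Ints10 (-0.55) with LIF, with limma adjusted p = 0.311 and 0.419 (Ints10 at -0.30 without knockout library 2), and Pabpn1 (-0.34) and Ints14 (0.42) after LIF removal, with limma adjusted p = 0.365 and 0.370. Each medium has a lone WT library, which the fit assumes to vary like the knockout libraries.

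LIF removal over both genotypes, 3 libraries against 3, gave 1 call among the 33 members, Cpsf4, the zinc finger CPSF subunit that contacts the AAUAAA signal, which was lower. Of all tested genes 21.4% passed, 8.73% higher and 12.7% lower. Cpsf4 (chromosome 5, 145167213 to 145182041) was at 33.4 and 36.7 FPKM in knockout and 42.2 in WT cells after LIF removal, against 47.5 and 45.3 FPKM in knockout and 49.7 in WT cells with LIF. The groups did not overlap, and the difference was -0.34 (SE 0.10, limma adjusted p = 0.0494). The call sits at the threshold: leaving out any 1 of the 6 libraries raised the adjusted p to between 0.0991 and 0.149, and other scalings, a smaller pseudocount, no filter or no intensity trend also ended it (0.0506 to 0.130). It held at 0.0414 with the genes of chromosomes 6, 8 and 11 left out, an alternative chosen after seeing the data. It also held, at a limma adjusted p = 0.0346, in a fit with line (WT, knockout 1 or knockout 2) as a term. That fit takes a number to mark the same line in both media, and it called 7 members and 3516 of all tested genes.

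Several members stood next to that threshold in both directions. Cpsf2, the partner of the endonuclease, gave 0.33, with 29.9, 29.2 and 28.0 FPKM in knockout 1, knockout 2 and WT cells after LIF removal, against 22.9, 23.0 and 22.7 with LIF (SE 0.10, limma adjusted p = 0.0501). Pabpn1 gave -0.33, with 80.0, 92.2 and 109 FPKM after LIF removal, against 113, 112 and 126 with LIF, in the same order of libraries (SE 0.10, limma adjusted p = 0.0510). Ints2 gave 0.40 (SE 0.12, limma adjusted p = 0.0508). Cpsf2, Pabpn1 and 11 other members did not overlap between media: 7 were higher after LIF removal (Cpsf2, Cpsf6, Cstf2t, Rbbp6, Papola, Ints9 and Ints13), as were 14.9% of tested genes, and 6 lower (Cpsf4, Sympk, Pabpn1, Ints3, Ints4 and Ints11), as were 16.8%. At an unadjusted p under 0.05 there were 6 members higher and 5 lower, against 36.8% of all tested genes in either direction. The 95% interval lay within 0.6 of 0 for 30 of 33 members. Beside these values, the 3 mesoderm markers summed to 3.03 to 15.0 FPKM after LIF removal, against 0.699 to 1.86 with LIF. Most of the sum after LIF removal was T (1.81 to 13.3 FPKM). The ESC markers had the lower sums given above. The part of these markers in the differences was not tested.

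**Figure D3:**
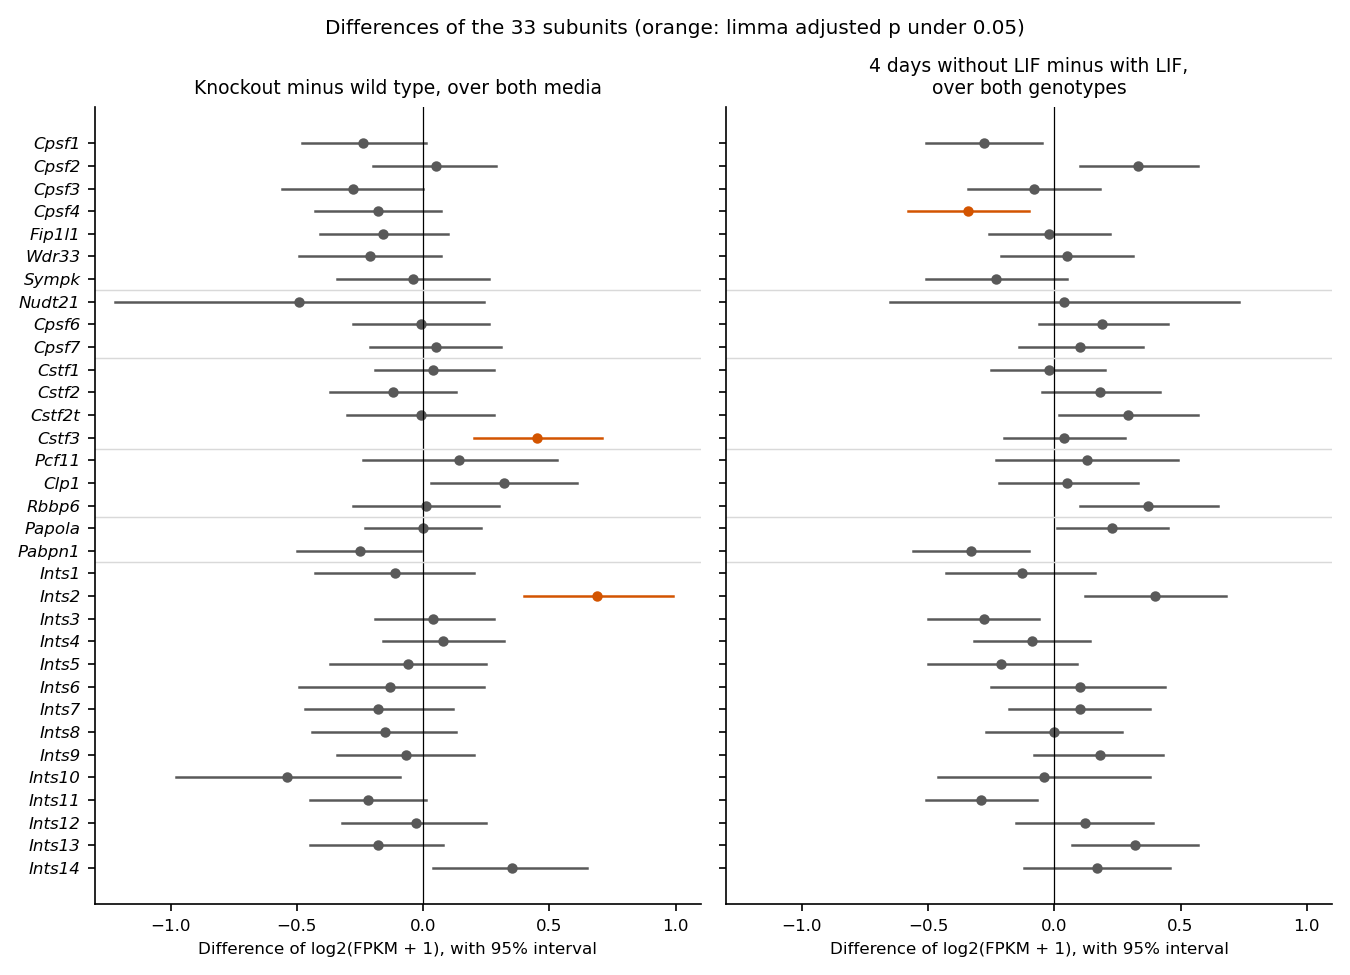
Difference of log2(FPKM + 1) with its 95% interval (horizontal axis) for each subunit, for knockout minus wild type over both media (left; 4 against 2 libraries) and for 4 days without LIF minus with LIF over both genotypes (right; 3 against 3). Orange marks the members past the threshold, Cstf3 and Ints2 on the left and Cpsf4 on the right. The interval lies within 0.6 of 0 for 27 of the 33 members on the left and for 30 on the right.

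The response to LIF removal was set side by side in both genotypes. In knockout cells limma called 0 of 33 members, against 6.92% of all tested genes (3.05% higher and 3.88% lower). At an unadjusted p under 0.05 there were 2 members higher and 2 lower, against 27.5% of all tested genes in either direction. The lowest p-values were those of Cpsf4 (-0.40, 95% interval -0.71 to -0.08, limma adjusted p = 0.118), Pabpn1 (-0.38, -0.69 to -0.07, limma adjusted p = 0.119), Ints2 (0.44, 0.05 to 0.82, limma adjusted p = 0.141) and Cpsf2 (0.35, 0.03 to 0.67, limma adjusted p = 0.154). Without knockout library 1 after LIF removal, Ints2 gave 0.28. In WT cells, where 1 library stands against 1 and no test was run, no member reached an absolute difference of 1, as 8.36% of all tested genes did (3.80% higher and 4.56% lower). The largest WT differences were 0.44 for Ints13, 0.43 for Rbbp6, 0.42 for Cstf2t and 0.32 for Ints2, and -0.29 for Ints11 and for Ints3, -0.24 for Cpsf1 and -0.23 for Cpsf4.

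The test of the difference between these responses passed for no member and no gene (limma). At an unadjusted p under 0.05 there were 0 members and 340 genes (2.89%). The lowest p-values among members were those of Ints1, Cpsf7, Ints5 and Sympk, with differences of -0.35, -0.28, -0.32 and -0.30, knockout minus WT. Leaving out knockout library 1 with LIF gave -0.21 for Ints1 and -0.19 for Sympk, and leaving out knockout library 1 after LIF removal gave -0.16 for Ints5 and -0.18 for Sympk. The 95% interval was -0.99 to 0.29 for Ints1 and -0.92 to 0.32 for Sympk, and it was widest for Nudt21 (-1.57 to 1.74). Sympk, Cpsf7 and Ints5 stood above WT in both knockout libraries with LIF and below WT in both after LIF removal, and Cstf1 the other way round. Some of these gaps were near 0. With LIF, Sympk was at 59.6 FPKM in knockout library 2, against 59.5 in WT cells. Cstf1 was at 62.1 FPKM in knockout library 1 with LIF, against 62.3 in WT cells. The share of all tested genes with such a pattern was not counted.

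**Figure D4:**
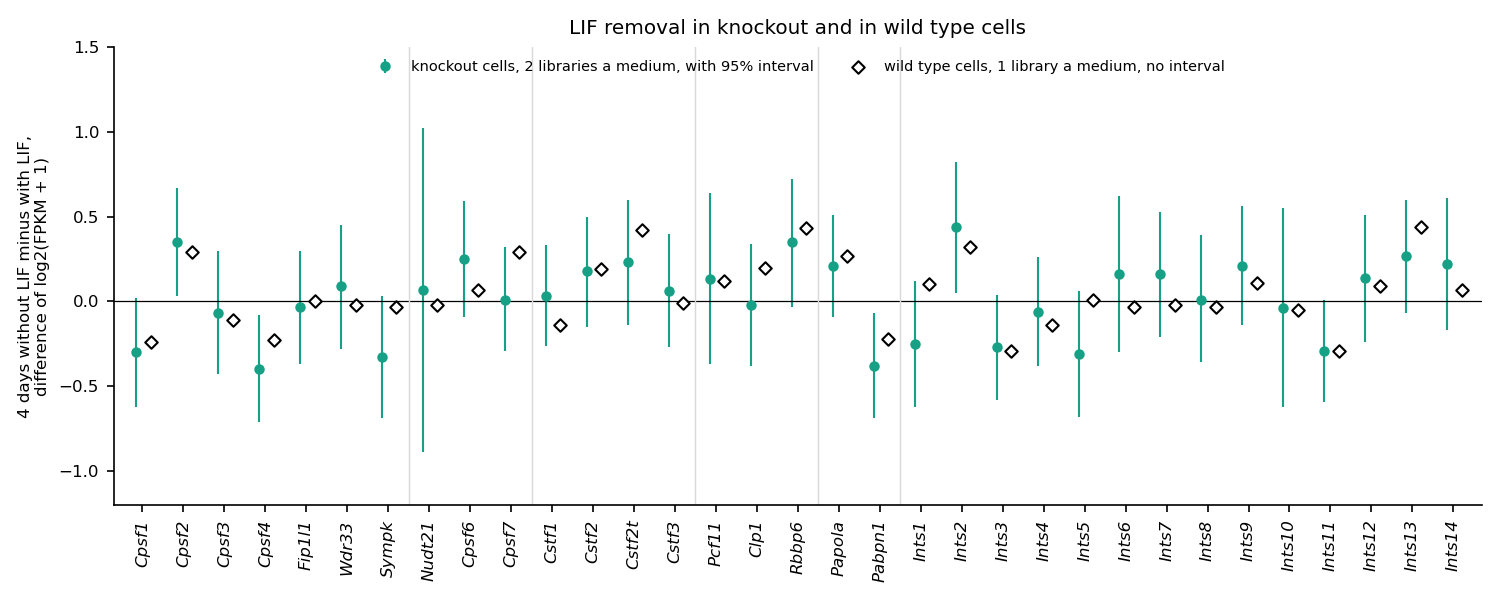
Difference between 4 days without LIF and with LIF, on the log2(FPKM + 1) scale (vertical axis), for each subunit in knockout cells (dots with 95% interval, 2 libraries a medium) and in wild type cells (diamonds, 1 library a medium, no interval). Cpsf4 and Pabpn1 lie below 0 and Cpsf2, Rbbp6 and Ints2 above 0 in both genotypes, and no diamond reaches a difference of 1.

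Genes that work with these complexes were counted for comparison, from lists that contain no member. Over both media, where 10.5% of all tested genes passed, 1 of 8 Integrator partners tested was higher in knockout cells and none lower (median -0.14). It was Ppp2ca, the catalytic subunit of PP2A, with 320 and 348 FPKM in knockout cells with LIF, against 214 in WT cells with LIF, and 381 and 368 FPKM in knockout cells after LIF removal, against 237 in WT cells after LIF removal (0.65, SE 0.09, limma adjusted p = 0.0111). Of 13 pausing and elongation factors 3 were higher and 1 lower (median -0.01). The higher ones were Polr2a, the largest subunit of RNA polymerase II (1.03, limma adjusted p = 0.00928), and the elongation factors Supt4a (0.68, 0.0251) and Supt6 (0.40, 0.0402). Ppp2ca, Polr2a, Supt4a and Supt6 all lie on chromosome 11, like Ints2. Nelfb, a pausing factor, was lower (-0.43, limma adjusted p = 0.0485).

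Of 23 other 3′ end, poly(A) tail and termination factors, none was higher and 2 were lower in knockout cells (median -0.13), both of them poly(A)-binding proteins of the cytoplasm. Pabpc4 was at 76.8 and 74.5 FPKM in knockout cells with LIF, against 150 in WT cells with LIF, and at 56.8 and 66.0 FPKM in knockout cells after LIF removal, against 140 in WT cells after LIF removal (-1.08, SE 0.11, limma adjusted p = 0.00612). Pabpc1 fell by 0.42 (SE 0.10, limma adjusted p = 0.0330). No histone mRNA 3′ end factor of 6 and no snRNA gene factor of 10 passed in this comparison, with medians of 0.06 and 0.11. On LIF removal over both genotypes, where 21.4% of all tested genes passed, limma called 0 of 8 Integrator partners and 0 of 23 other 3′ end factors. Of the histone factors, Slbp, which binds the histone mRNA stem-loop, was higher (0.39, limma adjusted p = 0.0335) and Lsm10, of the U7 particle, lower (-0.38, limma adjusted p = 0.0412). Ell2, an elongation factor that also acts at snRNA genes, rose by 0.63 (limma adjusted p = 0.00634), and Larp7, which holds the 7SK RNA, by 0.52 (limma adjusted p = 0.0236).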

How the data were processed

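Total RNA was sequenced as 150 bp paired-end reads, per the labels' protocols. The authors deposited FPKM per gene symbol and library; STAR, Cufflinks and mm10 are named per the submitters' processing notes, without versions, and the sources used here do not give the annotation, filters or strand setting. FPKM summed to 456155 to 556318 per library. No counts were used, so counting error is unknown.

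Values were analysed as log2(FPKM + 1), which understates changes of low genes, for the 11785 genes that averaged 1 FPKM or more. Tests used limma 3.58.1 in R 4.3.3 (empirical Bayes with intensity trend, two-sided, Benjamini-Hochberg over all tested genes, threshold 0.05). An additive fit of genotype and medium gave the effects over both media or genotypes (3 residual and 5.08 prior degrees of freedom); a 4-group fit gave the rest (2 and 4.70). LIF removal in WT cells, 1 library against 1, was not tested. The scripts were tested on simulated data with independent noise in each library, which checks the code and not the calls made here. The members and lists were chosen with earlier results of these data known. Members named are those past the threshold, or otherwise those with the lowest 4 p-values, the extremes of each complex, the widest differences between knockout numbers and members on chromosomes 6, 8 and 11; Cpsf3, Cstf1 and other members beyond this are named from counts, after their values were seen.

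Reads shared between genes limit some values. Of a member's 50-base stretches, in GENCODE M21, 18.8% of those of Pabpn1 recur in Gm20521, 14.1% of Ints14 in the pseudogene 6330549D23Rik, 11.8% of Nudt21 in the pseudogene Gm7488, and 13.1% and 11.4% of Ints5 in Gm49416 and the pseudogene Gm13126. On the opposite strand, 15.1% of Ints11 recur in Pusl1 and 4.26% of Ints2 in Brip1os. Gene positions and promoters are RefSeq GRCm38.p6, whereas the transcript ends shown are GENCODE M21. Their bounds can differ, as for Nudt21, which begins at 94019403 in RefSeq and at 94015496 in GENCODE.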

Additional observations from a re-analysis of the deposited data

How the results depend on the processing

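Over all alternatives, 302 of 339 recomputed differences of the members named by rule kept their direction and their side of the threshold. Where there was no test, they were counted as kept if they moved by less than the knockout libraries' spread. Of the rest, 21 lost the call, 9 gained one, 7 untested ones moved by more and none reversed. The 302 include differences that were never called, which kept their side by staying so. The calls themselves held less often. For the knockout effect over both media, Ints2 was called in 8 of 11 alternatives and Cstf3 in 5 of 12. For LIF removal over both genotypes, Cpsf4 was called in 2 of 13. The count of members called for the knockout effect over both media was 2; it was 0 without a filter on low values, 1 without the intensity trend, 1 with the genes of chromosomes 6, 8 and 11 left out (an alternative chosen after seeing the data, which removes Ints2 itself), and 0 to 2 when 1 library was left out. For LIF removal over both genotypes the count was 1. It was 0 without a filter, without the trend, with 0.1 as pseudocount or with any 1 library left out. It was 3 with median ratio scaling, 5 with quantile normalization and 4 without chromosomes 6, 8 and 11. Over all genes, these last settings called 2451, 2331 and 2274, in that order, against 2523 in the main fit. The replicate block (line as a term) called 7 members on LIF removal over both genotypes, with adjusted p = 0.0346 for Cpsf4, 0.0360 for Cpsf2, 0.0330 for Pabpn1 and 0.0300 for Ints2 and also calling Rbbp6, Ints11 and Ints13, and 0 in knockout cells alone; over all genes it called 3516, against 2523, and 2615 in knockout cells, against 816. Knockout 2 minus knockout 1 correlated between media across genes with r = 0.366. The labels use the same numbers in both media but do not say that a number marks 1 clone, so the block is given as an alternative. The other comparisons kept 0 members under every alternative run. Over all genes, the knockout effect over both media gave 1232 calls, 335 without a filter, 549 without chromosomes 6, 8 and 11, 560 without knockout library 2 with LIF, and 7 or 5 without the WT library with LIF or after LIF removal, where a single medium is left to compare. LIF removal over both genotypes gave 2523, against 817 to 1924 with 1 library left out. Without a filter, LIF removal in knockout cells gave 0 in place of 816, and 124 to 821 with 1 library left out. The knockout effect gave 5 calls with LIF and 0 to 14 under alternatives, and 7 after LIF removal and 0 to 16 under alternatives; the difference of responses gave 0 and at most 1. In WT cells, 985 genes passed a difference of 1, and 1550 with 0.1 as pseudocount. The cause was not tested where a count moved. Each medium has 1 WT library and the number of reads behind each value is unknown, which limits the precision of every comparison.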
